A study of Homo sapiens with 16 samples.

Results

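The sympathetic lineage transcription factors TBX2, HAND2, GATA2, GATA3, TFAP2B, PHOX2A, ISL1 and HAND1 were followed in single SK-N-AS cells. Each was found by its symbol among the semicolon-separated names of the gene rows, and the 8 factors matched 8 rows out of 27043. SK-N-AS is an established human neuroblastoma cell line, from a childhood tumour of the sympathetic nervous lineage. The cells were untreated, were grown in RPMI1640 with fetal calf serum and antibiotics, were detached with versene and were sorted singly into plate wells. RNA was counted with MARS-seq, a well-based method that reads the ends of polyadenylated transcripts. The labels list 16 samples of this 1 line, but the cell columns carry barcodes only, so the 603 cells are 1 sample with no replicate and no test between samples.

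The cells held 1537576 counts, from 1000 to 42404 per cell with a median of 2106. Their barcodes fall into 2 runs of columns, called barcode set 1 (316 cells) and barcode set 2 (287 cells), and 239 barcodes are used in both. The labels do not name these runs, which give only a check within the table. A gene with no count is limited to 1.95 CPM, counts scaled to a common library total, or 0.498% of cells with a count. Every interval given is at 95% and covers counting error only. Counts of transcript ends do not grow with transcript length, so levels of different genes are set side by side in CPM without a length correction.

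In the embryo, bone morphogenetic proteins from the dorsal aorta act on neural crest cells, which switch on HAND2, PHOX2A, GATA2, GATA3, TFAP2B and ISL1 as they become sympathetic neuroblasts and chromaffin cells. Together these factors drive the genes of noradrenaline synthesis and storage. In neuroblastoma many of them belong to the core circuit of the adrenergic state, and SK-N-AS is usually grouped with the mesenchymal state.

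GATA factors bind short sites built around their own 4 letters, so the windows at the start sites of the factors were searched for AGATAA or AGATAG or TGATAA or TGATAG, on both strands. The windows come from RefSeq on GRCh38.p14, a later build than the hg19 named for the count table, and reach from 250 bases before a start to 50 bases after it. Windows were found for 7 of the 8 factors (TBX2 had none), 13 windows in all, and 2 of them held a match, those of HAND2 and ISL1. A match was found in 24.97% of all 35116 windows. These windows are shown, with a GATA2 window that had no match, because HAND2, GATA2 and ISL1 stand for a high, an intermediate and a rare level in these cells. HAND2 (chr4:173530180-173530479, minus strand), ISL1 (chr5:51383198-51383497, plus strand) and GATA2 (chr3:128493152-128493451, minus strand) are written 5′ to 3′, with the matched letters in capitals.
HAND2: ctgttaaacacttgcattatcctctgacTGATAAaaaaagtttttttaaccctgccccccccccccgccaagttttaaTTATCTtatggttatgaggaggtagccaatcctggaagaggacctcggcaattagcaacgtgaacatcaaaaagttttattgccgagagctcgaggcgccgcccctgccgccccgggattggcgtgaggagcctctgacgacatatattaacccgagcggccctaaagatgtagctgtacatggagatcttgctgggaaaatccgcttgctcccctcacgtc
ISL1: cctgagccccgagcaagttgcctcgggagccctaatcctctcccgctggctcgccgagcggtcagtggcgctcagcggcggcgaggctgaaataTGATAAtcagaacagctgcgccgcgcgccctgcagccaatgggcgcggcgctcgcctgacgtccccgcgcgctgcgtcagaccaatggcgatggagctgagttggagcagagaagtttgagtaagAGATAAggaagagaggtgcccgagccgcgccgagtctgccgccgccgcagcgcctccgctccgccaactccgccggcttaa
GATA2: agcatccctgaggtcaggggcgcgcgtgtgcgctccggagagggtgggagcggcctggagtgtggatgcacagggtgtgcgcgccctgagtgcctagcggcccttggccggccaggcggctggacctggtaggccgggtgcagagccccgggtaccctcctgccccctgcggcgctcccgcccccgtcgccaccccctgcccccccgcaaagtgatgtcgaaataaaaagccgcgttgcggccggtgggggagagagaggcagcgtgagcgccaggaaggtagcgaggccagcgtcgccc
The matches start at bases 29 and 79 of the HAND2 window and at bases 95 and 220 of the ISL1 window. The letters CATCTG, a site form bound by HAND factors, were found in 1 of the 13 windows, that of TFAP2B, and in 14.7% of all windows. These matches describe letters and say nothing of binding.

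The factors split into 4 that were read in a large share of the cells and 4 that were rare. TBX2, a T-box factor that mostly represses its targets, had 626 counts (407 CPM, 376 to 440.3) in 320 cells. HAND2, a basic helix-loop-helix factor needed for noradrenergic differentiation in the mouse, had 420 counts (273 CPM, 248 to 301) in 267 cells. The zinc finger factor GATA2 had 310 counts (202 CPM, 179.8 to 225) in 197 cells, and its relative GATA3 had 260 counts (169 CPM, 149 to 191) in 171 cells. The intervals of TBX2, HAND2 and GATA2 did not overlap, and those of GATA2 and GATA3 did.

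The rare factors lay lower, and their order was less certain. TFAP2B, an AP-2 factor of neural crest derivatives, had 50 counts (32.5 CPM, 24.1 to 42.9) in 46 cells. PHOX2A, a paired-type homeobox factor and an activator of DBH, had 36 counts (23.4 CPM, 16.4 to 32.4) in 33 cells. ISL1, a LIM homeobox factor of sympathetic, sensory and motor neurons, had 16 counts (10.4 CPM, 5.95 to 16.9) in 16 cells. HAND1, the HAND2 relative best known from heart and extraembryonic tissue, had 14 counts (9.11 CPM, 4.98 to 15.3) in 13 cells. Neighbours in this order overlapped in their intervals, while TFAP2B stood clear of ISL1 and HAND1, and PHOX2A stood clear of HAND1.

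**Figure D1:**
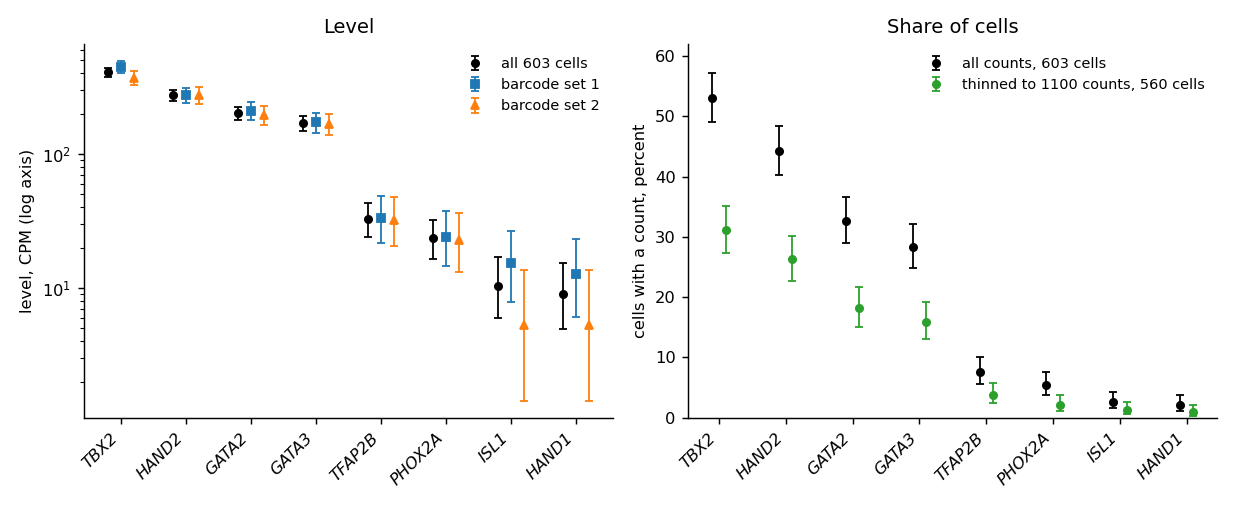
Levels in CPM on a log axis (left) and percent of cells with a count (right) for the 8 factors. Points are values, bars are 95% counting intervals, and colours separate barcode sets (left) or all counts from counts thinned to equal depth (right). TBX2, HAND2, GATA2 and GATA3 lie from 407 down to 169 CPM and the other factors at or below 32.5 CPM.

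Levels were close between the barcode sets for most factors. HAND2 had 273 CPM in set 1 and 273 CPM in set 2, GATA2 had 209 CPM in set 1 and 194 CPM in set 2, and GATA3 had 172 CPM in set 1 and 166 CPM in set 2. TFAP2B had 33.1 CPM in set 1 and 31.9 CPM in set 2, and PHOX2A had 24.2 CPM in set 1 and 22.6 CPM in set 2. TBX2 had 444 CPM (399 to 493) in set 1 and 369 CPM (327 to 415) in set 2, the widest gap among the common factors, with overlapping intervals. ISL1 had 15.3 CPM (7.89 to 26.7) in set 1 and 5.32 CPM (1.45 to 13.6) in set 2, and HAND1 had 12.7 CPM (6.10 to 23.4) in set 1 and 5.32 CPM (1.45 to 13.6) in set 2.

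Other lineage factors gave these levels a scale. TBX3, the closest relative of TBX2, had 88.5 CPM (74.2 to 105). TFAP2A, NHLH1 and ZNF536 were at 0 counts, and MYCN had 8 counts. Among known protein partners, the E proteins TCF3 and TCF4, which pair with HAND factors, had 91.7 and 90.4 CPM. The GATA cofactor ZFPM1 had 13.7 CPM, and LMO2, which bridges GATA and E protein complexes in blood, was at 0 counts.

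Markers of other cell types give a background for the rare factors, since 1 cell line holds no cell type that should lack them. All 8 adrenal cortex and all 7 erythroid markers were at 0, Schwann cell precursor markers had 2 counts and endothelial markers had 5. Immune markers had 30 counts, of which 29 were of the leukocyte gene PTPRC, in 25 cells (4.15%). The shares of HAND1 (2.16%, 1.15 to 3.66) and ISL1 (2.65%, 1.52 to 4.27) were below that of PTPRC. Their 14 and 16 counts were above those of every other marker here, none of which had more than 2 counts. Whether the counts of HAND1 and ISL1 come from their own cells was not tested, and values for cells with them carry that limit. HAND2-AS1, an antisense neighbour of HAND2 listed under an older name, had 79 counts (51.4 CPM) in 66 cells. No source used here says whether strand was counted, so reads of HAND2 and HAND2-AS1 cannot be told apart where the genes overlap.

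Deep cells held more of every common factor. The median total was 2485 counts in TBX2-positive cells and 1722 counts in TBX2-negative cells, and it was 2525 counts in GATA3-positive cells and 1974 counts in GATA3-negative cells. Shares were therefore also taken after each of the 560 cells with enough counts was thinned at random to 1100 counts. At this equal depth TBX2 was read in 31.1% (27.3 to 35.1) of cells, HAND2 in 26.3% (22.6 to 30.1), GATA2 in 18.2% (15.1 to 21.7) and GATA3 in 15.9% (12.96 to 19.2). TFAP2B was read in 3.75%, PHOX2A in 2.14%, ISL1 in 1.25% and HAND1 in 0.893% of the thinned cells. A cell with no count at this depth may still express the factor. TBX2 was read in 36.0% of set 1 cells and in 25.5% of set 2 cells.

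Most positive cells held a single count. At all counts TBX2 had 172 cells with 1 count and 148 with more, HAND2 175 cells with 1 count and 92 with more, GATA2 131 cells with 1 count and 66 with more, and GATA3 112 cells with 1 count and 59 with more. The highest counts in 1 cell were 23 for TBX2 and 13 for HAND2, both in the deepest cell of the table, and 5 for each GATA gene.

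The common factors differed in how evenly their counts were spread at equal depth. TBX2 had more than 1 count in 49 cells, against 38.6 if every cell had the same level. GATA2 had more than 1 count in 18 cells, against 12.4, GATA3 in 22 cells, against 10.1, and HAND2 in 19 cells, against 20.9. In this thinning HAND2 was thus spread about as counting error gives, and the GATA genes and TBX2 were more uneven. These numbers and the variances below come from 1 thinning and carry no interval. The variance of thinned counts over their mean (Fano factor) was 1.31 for GATA3, 1.30 for GATA2, 1.28 for TBX2 and 0.996 for HAND2. Among genes of like mean, 96.2% had a lower Fano factor than GATA3, 95.5% than GATA2, 92.3% than TBX2 and 10.9% than HAND2.

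Pairs of factors were set against independence at equal depth. TBX2 and HAND2 were both read in 44 cells against 45.7 (0.963, 0.707 to 1.28) given by independence, where the brackets hold the ratio and its interval. TBX2 met GATA2 in 32 cells against 31.7 (1.01, 0.696 to 1.41) and GATA3 in 22 cells against 27.7 (0.796, 0.502 to 1.19). HAND2 met GATA2 in 30 cells against 26.8 (1.12, 0.762 to 1.58) and GATA3 in 26 cells against 23.4 (1.11, 0.732 to 1.61). GATA2 and GATA3 shared 24 cells against 16.2 (1.48, 0.955 to 2.18), the highest ratio of these 6 pairs. All 6 intervals held 1.

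Thinning discards counts at random, so the same question was put to all counts, with each cell's probability of a count set by its own total. GATA2 and GATA3 then shared 74 cells against 66.4 (1.11, 0.875 to 1.40), with 40 against 34.2 in set 1 and 34 against 32.1 in set 2. Averaged over all possible thinnings their ratio was 1.23, and in 1 thinning to 800 counts it was 0.840. TBX2 and HAND2 shared 161 cells against 158 (1.02, 0.870 to 1.19), HAND2 and GATA3 shared 94 cells against 87.7 (1.07, 0.866 to 1.31), and TBX2 and GATA3 shared 98 cells against 103 (0.950, 0.771 to 1.16). Of all 28 pairs 15 lay above 1, and 0 had an interval clear of 1 at all counts. Summed over pairs, 887 shared cells were seen against 852 given by independence. At equal depth 1 pair lay clear above 1, HAND1 with TFAP2B, on 2 cells against 0.188, and at all counts it had 2 cells against 1.48 (1.35, 0.163 to 4.87).

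**Figure D2:**
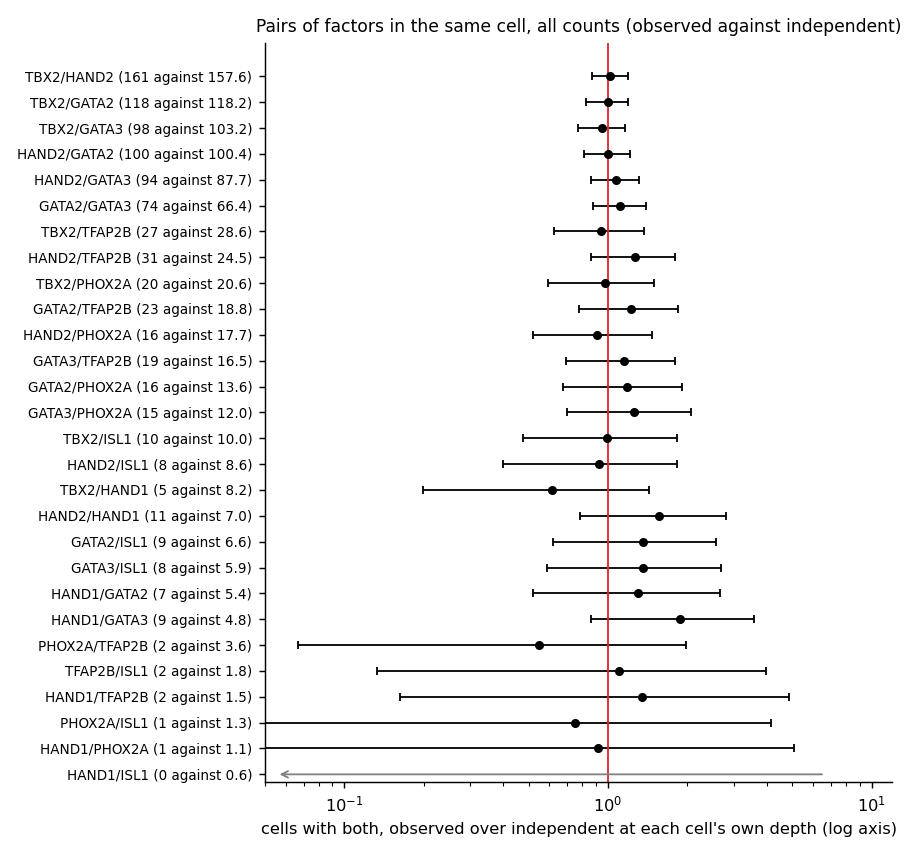
Cells with both factors of a pair, observed over the number given by independence at each cell's own depth, on a log axis with 95% intervals for counting error, for all 28 pairs with both numbers in the labels. The arrow marks HAND1 with ISL1, which shared no cell, and every interval holds 1.

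HAND1 is too rare to be placed among the other factors. It met GATA3 in 9 cells against 4.78 (1.88, 0.861 to 3.57), HAND2 in 11 cells against 7.02 (1.57, 0.782 to 2.80) and TBX2 in 5 cells against 8.17 (0.612, 0.199 to 1.43). TFAP2B met HAND2 in 31 cells against 24.5 (1.26, 0.859 to 1.80) and PHOX2A in 2 cells against 3.64 (0.550, 0.0666 to 1.99). The 4 rare factors met each other in 8 cells against 9.92, summed over their 6 pairs.

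The number of factors per cell differed from the independent numbers in no single direction. These differences carry no interval, so counting error was not set against them, and those at equal depth come from 1 thinning. At equal depth 190 cells had none of the 8, against 181, 220 had 1, against 235, 124 had 2, against 115, 17 had 3, against 26.5, and 9 had 4 or more, against 3.08. At all counts 101 cells had none of the 8, against 90.3, 169 had 1, against 183, 185 had 2, against 174, 85 had 3, against 104, and 63 had 4 or more, against 51.5. Cells with none, 2 or at least 4 factors were thus more frequent, and cells with 1 or 3 less frequent, than the independent numbers. Cells with at least 3 factors numbered 148 at all counts, against 155.

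**Figure D3:**
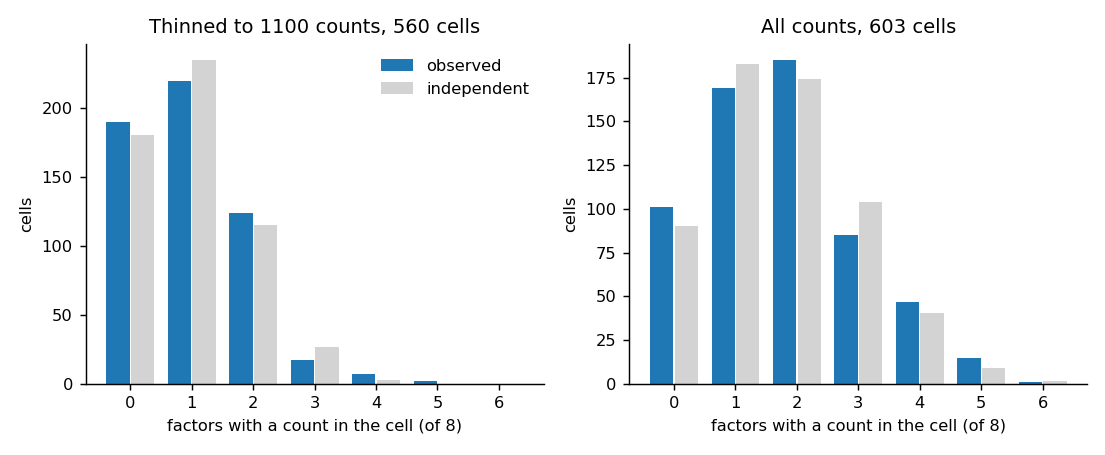
Numbers of cells by how many of the 8 factors had a count, observed and given by independence, at equal depth (left) and at all counts (right, from each cell's own depth). Observed numbers exceed the independent ones at 0 factors (190 against 181 at equal depth, 101 against 90.3 at all counts), at 2 and at 4 factors, and fall short of them at 1 and 3.

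GATA2 was read more often than independence gives with the 10 noradrenergic and neuronal list genes that had at least 30 counts. The list held 22 genes, and TH, DBH, SLC18A1, SLC18A2 and SLC6A2 were not among the 10, so nothing is said of them here. Values are given as cells with both genes at all counts against the number from independence, then the ratio and its interval in brackets. RET, a receptor of the GDNF family, had the highest ratio of all 3463 genes tested with GATA2, with shared cells at 42 against 27.1 (1.55, 1.12 to 2.098) and ratios of 1.46 in set 1 and 1.66 in set 2. NPY, the peptide co-released by sympathetic neurons, had 33 against 22.3 (1.48, 1.02 to 2.07), and DDC, the enzyme that makes dopamine, had 52 against 39.1 (1.33, 0.994 to 1.75). CHRNA3, a subunit of the ganglionic nicotinic receptor, had 35 against 25.9 (1.35, 0.942 to 1.88), and the granin CHGA had 20 against 13.6 (1.47, 0.901 to 2.28). The ratio of CHGA was 1.81 in set 1 and 1.20 in set 2, but 25.4% of its counts lay in 1 cell. Its log2 ratio of counts averaged over all thinnings was 2.20 in set 1 and -0.60 in set 2. The complement gene C7 had 61 against 42.1 (1.45, 1.11 to 1.86). Of the noradrenergic and neuronal genes with at least 30 counts 10 of the 10 lay above 1, where 50.4% of all genes tested did, with a median ratio of 1.34 against 1.00 over all genes. Of the mesenchymal factors 0 of the 8 with at least 30 counts lay above 1, with a median of 0.930. The share over all genes, here and below, covers genes with at least 30 thinned counts in at least 20 cells. This filter is stricter, and 7 of the 10 and 5 of the 8 list genes passed it.

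Some genes were read less often with GATA2. AMIGO2, an adhesion protein, shared cells with it at 41 against 67.8 (0.604, 0.434 to 0.820), and ITGBL1, a secreted integrin-like protein, at 12 against 23.1 (0.519, 0.268 to 0.906). AXL, a receptor kinase of mesenchymal neuroblastoma cells, had 97 against 112 (0.865, 0.701 to 1.05). With GATA2 1 gene of 3463, RET, reached 1.5 times the independent number (0.0289%), and 7 lay as far the other way (0.202%).

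The leading genes with GATA3 were in part those of GATA2, and the difference between the lists was not tested. The membrane protein gene TMEM176B shared cells with GATA3 at 28 against 19.0 (1.47, 0.980 to 2.13), FAM167A at 47 against 32.0 (1.47, 1.08 to 1.95) and CRABP1, a retinoic acid binding protein, at 24 against 15.8 (1.51, 0.970 to 2.25). TMEM176B also ranked 8 with GATA2, at 30 against 21.6 (1.39, 0.939 to 1.99). CHGA had 17 against 11.97 (1.42, 0.828 to 2.27), CHRNA3 30 against 22.8 (1.32, 0.888 to 1.88), DDC 44 against 34.3 (1.28, 0.931 to 1.72) and RET 28 against 23.8 (1.18, 0.781 to 1.70). Above 1 lay 9 of the 10 noradrenergic and neuronal genes, where 33.4% of all genes did, and 1 of the 8 mesenchymal factors. AXL had 78 against 98.0 (0.796, 0.629 to 0.993). Of the replication (G1/S) genes 1 of the 23 lay above 1, with a median of 0.916 against 0.964 over all genes. With GATA3 1 gene of 3463, CRABP1, reached 1.5 times the independent number (0.0289%) and 34 lay as far the other way (0.982%), among them SPAG5, a spindle protein, at 10 against 24.5 (0.408, 0.196 to 0.750).

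Cells were then divided by whether GATA2, GATA3 or both had a count, and the number of cells with each noradrenergic or neuronal gene was set against what the depth of those cells gives. In the 74 cells with both GATA genes 10 of 10 list genes were above the depth number, where 48.5% of 3460 genes were. Without the deepest cell 9 of 10 were above, and it was 7 of 10 in barcode set 1 alone and 10 of 10 in set 2 alone. CHGA was read in 13 against 6.04 (2.15, 1.15 to 3.68), RET in 21 against 11.8 (1.78, 1.10 to 2.72), CHRNA3 in 19 against 11.3 (1.68, 1.01 to 2.62) and DDC in 28 against 16.8 (1.66, 1.11 to 2.40). ELAVL4, a neuronal RNA-binding protein, was read in 10 against 5.51 (1.82, 0.871 to 3.34). The other 5 genes of the list were near the depth number, with SCG2, TUBB3, PRPH, STMN2 and CHGB at ratios of 1.06, 1.06, 1.09, 1.13 and 1.06.

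Cells with 1 GATA gene lay between those with both and those with neither in the sum over the list, though not for every gene. In the 123 cells with GATA2 and no GATA3 count 8 of 10 list genes were above the depth number (48.2% of all genes), and RET was read in 21 against 15.4 (1.36, 0.844 to 2.08). In the 97 cells with GATA3 and no GATA2 count 6 of 10 were above (50.5% of all genes), and RET was read in 7 against 10.6 (0.659, 0.265 to 1.36). In the 309 cells with neither GATA gene 0 of 10 were above, where 51.2% of all genes were. Over all classes the depth numbers of a gene add up to its observed cells. A surplus in some classes therefore forces a deficit in others, and the values with neither are not a separate result. There DDC was read in 30 against 43.1 (0.696, 0.470 to 0.993) and RET in 18 against 29.2 (0.617, 0.366 to 0.975). Summed over the list, cells observed over the depth number were 1.28 (1.11 to 1.46) with both, 1.08 (0.953 to 1.22) with GATA2 alone, 1.00 (0.861 to 1.16) with GATA3 alone and 0.863 (0.783 to 0.949) with neither. A cell enters these sums once for each list gene it holds, so the intervals are too narrow, and those of neighbouring classes overlapped. Single genes broke the order, as STMN2 was at 1.496 with GATA2 alone and 1.13 with both, and ELAVL4 was at 0.425 with GATA3 alone and 0.777 with neither. Within set 1 the sums gave 1.18 (0.965 to 1.43) with both and 0.897 (0.783 to 1.02) with neither, and both intervals held 1. Within set 2 they gave 1.38 (1.14 to 1.66) with both and 0.830 (0.721 to 0.952) with neither. Of the mesenchymal factors 1 of 8 were above depth in cells with both and 7 of 8 in cells with neither.

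**Figure D4:**
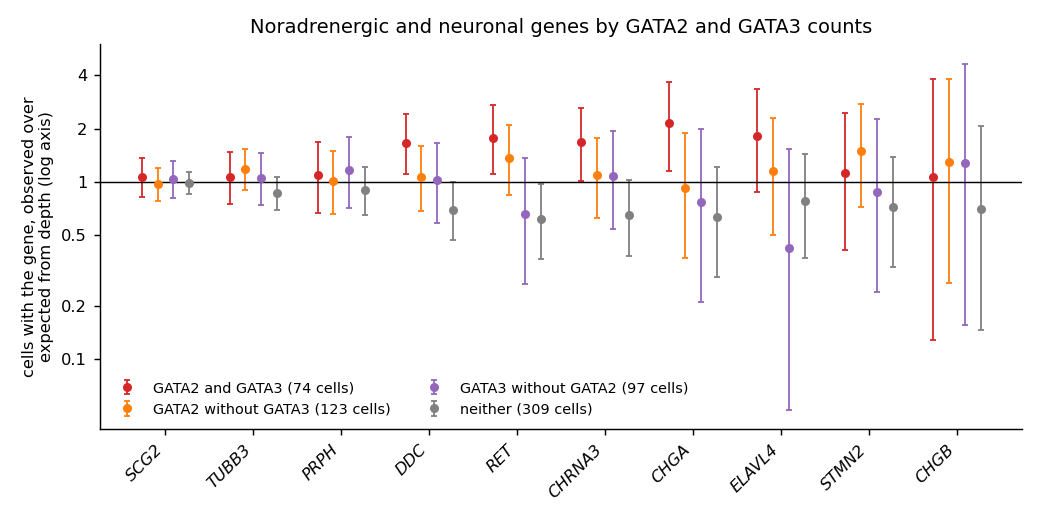
Cells with a noradrenergic or neuronal gene, observed over the number given by cell depth, on a log axis with 95% counting intervals, by GATA2 and GATA3 counts in the cell. Points for cells with both lie above 1 for all 10 genes and points for cells with neither lie below 1 for all 10. Observed and depth numbers have the same sum over the classes, so a surplus in some forces a deficit in others.

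Cells with a count of the INS-IGF2 row, a readthrough of the insulin and IGF2 genes, overlapped with the GATA cells, and its part in the result was not tested further. INS-IGF2 was read with GATA2 in 69 against 54.6 (1.26, 0.984 to 1.60) and with GATA3 in 62 against 47.9 (1.30, 0.993 to 1.66). Among cells without it, 39 had both GATA genes, and 7 of 10 list genes were above depth in them. The summed ratio there was 1.11 (0.886 to 1.37) with both, 1.09 with GATA2 alone, 1.08 with GATA3 alone and 0.917 (0.821 to 1.02) with neither. Without those cells the intervals for both and for neither held 1, and the ratio with both was close to those with 1 GATA gene.

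HAND2 was read with the same list at smaller ratios than GATA2 (list median 1.34), and near those of GATA3 (list median 1.09). Above 1 lay 10 of the 10 noradrenergic and neuronal genes (45.2% of all genes), with a median of 1.12, among them RET at 45 against 35.4 (1.27, 0.926 to 1.70) and CHRNA3 at 42 against 33.9 (1.24, 0.893 to 1.68). No gene of 3463 reached 1.5 times the independent number with HAND2 (0.0%), and 1 lay as far the other way, LITAF (0.0289%). Of the other lineage factors 6 of the 7 with at least 30 counts lay above 1, with TBX3 at 59 against 50.3 (1.17, 0.893 to 1.51). Of the replication genes 5 of the 23 lay above 1, and E2F1, which drives entry into replication, shared cells with HAND2 at 29 against 41.6 (0.697, 0.467 to 1.00). Of the mesenchymal factors 5 of the 8 lay above 1, with a median of 1.03 and a summed ratio of 0.989.

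TBX2 was read less often than independence gives with most of the noradrenergic and neuronal genes. Above 1 lay 1 of the 10 noradrenergic and neuronal genes, SCG2 at 1.02, where 54.2% of all genes did, and the list median was 0.852. Summed over the list, shared cells with TBX2 numbered 593 against 643 (0.922), a small deficit. CHGA had the lowest ratio with TBX2 of all 3463 genes, at 12 against 20.6 (0.583, 0.301 to 1.02), and its interval held 1. The ratios of CHGA were 0.819 in set 1 and 0.374 in set 2. INS-IGF2 had 66 against 84.5 (0.781, 0.604 to 0.994). TMEM176B, which was read often with GATA2 and GATA3, had 23 against 32.9 (0.699, 0.443 to 1.05). TBX3, its relative, shared cells with TBX2 at 67 against 58.9 (1.14, 0.881 to 1.44). Of the mesenchymal factors 5 of the 8 lay above 1, near the share of all genes, with a summed ratio of 1.03. No gene reached 1.5 times the independent number with TBX2 (0.0%), and CHGA was the 1 gene as far the other way (0.0289%). Because TBX2 was also higher in set 1, the list sums were read within each set, at 0.918 in set 1 and 0.935 in set 2.

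**Figure D5:**
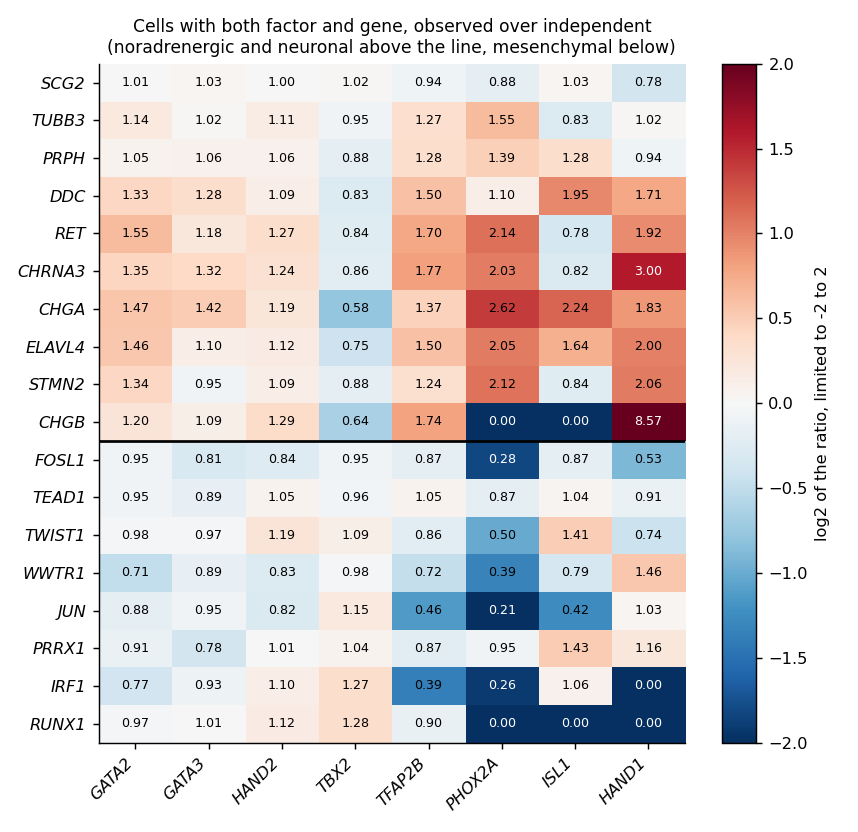
Cells with both a factor (columns) and a gene (rows), observed over independent at each cell's own depth. Numbers are the ratios and colours their log2 values, with noradrenergic and neuronal genes above the line and mesenchymal factors below it. The GATA2 and HAND2 columns are above 1 for all 10 noradrenergic and neuronal genes, and the TBX2 column for 1 of them.

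Cells with a count of PHOX2A held most of the 10 noradrenergic and neuronal genes more often, and mesenchymal factors less often, than independence gives. RET shared cells with PHOX2A at 11 against 5.14 (2.14, 1.07 to 3.83), CHGA at 7 against 2.67 (2.62, 1.06 to 5.41) and CHRNA3 at 10 against 4.93 (2.03, 0.972 to 3.73). As log2 ratios of counts averaged over all thinnings, RET was at 1.14, but CHGA was at 0.081 and CHRNA3 at 0.011, near no difference. CHGB had 0 counts in PHOX2A cells. By counts pooled over cells, STMN2, a microtubule regulator of neurons, was at 166 CPM in PHOX2A cells and 27.6 CPM in the others (log2 ratio 2.58, 1.62 to 3.47). PRPH, peripherin, was at 265 CPM in PHOX2A cells and 91.9 CPM in the others (log2 ratio 1.53, 0.84 to 2.16). On this pooled measure CHRNA3 was at 2.01 (1.29 to 2.69) and CHGA at 0.89 (0.14 to 1.56). The pooled values of STMN2 and PRPH are thus not comparable with the means over all thinnings. Above 1 lay 8 of the 10 list genes (24.8% of all genes) and 0 of the 8 mesenchymal factors, the mesenchymal list with a median of 0.339 against 0.849 over all genes. FOSL1, an AP-1 factor of the mesenchymal state, shared cells with PHOX2A at 4 against 14.1 (0.284, 0.0773 to 0.726). Of the mitosis (G2/M) genes 0 of the 24 lay above 1, with a median of 0.680. Of all genes 1.36% reached 1.5 times the independent number with PHOX2A and 25.7% lay as far the other way.

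TFAP2B was read with part of the same list. CHRNA3 shared cells with it at 12 against 6.76 (1.77, 0.917 to 3.10) and RET at 12 against 7.06 (1.70, 0.879 to 2.97). GCG, the glucagon gene, chosen here after its value was seen, had 13 against 5.08 (2.56, 1.36 to 4.38). Above 1 lay 9 of the 10 noradrenergic and neuronal genes (47.9% of all genes), while 1.99% of all genes reached 1.5 times the independent number and 7.36% lay as far the other way. CHGB was at 177 CPM in TFAP2B cells and 6.52 CPM in the others (log2 ratio 4.76, 3.64 to 6.03), but 70.3% of its counts came from 1 cell, and cells with both numbered 2 against 1.15.

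HAND1 and ISL1 rest on 13 and 16 cells. CHRNA3 was read with HAND1 in 6 against 2.002 (3.00, 1.10 to 6.52) and CHGB in 3 against 0.350 (8.57, 1.77 to 25.1), and 8 of the 10 list genes lay above 1 (35.5% of all genes). DDC was at 922 CPM in HAND1 cells and 176 CPM in the others (log2 ratio 2.39, 1.83 to 2.91), and cells with both numbered 5 against 2.93 (1.71, 0.554 to 3.98). Of all genes 6.44% reached 1.5 times the independent number with HAND1 and 31.6% lay as far the other way. With ISL1 5 of the 10 list genes lay above 1 (28.3% of all genes), and 3.44% of all genes reached 1.5 times the independent number and 35.1% lay as far the other way. NPY was read with ISL1 in 7 against 2.14 (3.27, 1.32 to 6.75) and DDC in 7 against 3.59 (1.95, 0.784 to 4.02).

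Protein partners and the BMP pathway, which lies upstream of these factors in the embryo, were read with them in numbers whose intervals held 1 for the genes named here. TCF4 shared cells with GATA3 at 44 against 36.3 (1.21, 0.880 to 1.63) and with GATA2 at 48 against 41.4 (1.16, 0.856 to 1.54), while LMO4 shared cells with GATA2 at 22 against 29.8 (0.738, 0.463 to 1.12). Summed over the 8 BMP pathway genes with at least 30 counts, shared cells over independence were 1.03 with GATA2, 0.981 with GATA3, 0.985 with HAND2 and 0.985 with TBX2.

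Summed thinned counts, factor-positive over factor-negative cells, rank genes less surely, because 1 random thinning keeps few counts of each. With GATA2 the highest log2 ratios among 3463 genes were SHD at 1.94 (1.09 to 2.78), CCAR1 at 1.89, NPY at 1.67, GPKOW at 1.61, PRPF4 at 1.58 and TMEM108 at 1.55. SHD, an adaptor protein, had 23.5 counts per 100 GATA2-positive cells and 6.11 per 100 negative cells. Low ratios were those of AMIGO2 at -3.39 and MTDH at -3.04. Beyond 1.5-fold lay 9.41% of genes upward and 13.2% downward, and 2.97% and 5.02% once all thinnings were averaged. In another thinning or at another depth MTDH (0.084 in another thinning) and PRPF4 (-0.036 at 800 counts) changed direction. Spearman's correlation across the 560 cells, which come from 1 table and were thinned to 1 depth, was highest for CHGA (0.184), C7 (0.171) and SHD (0.166).

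With GATA3 the highest log2 ratios were TMEM176B at 2.56 (1.54 to 3.60), FAM167A at 1.87, STX5 at 1.82, SRRM1 at 1.76, CRABP1 at 1.73 and CHRNA3 at 1.69. NKAP, C2orf68 and LRRC58 had no count in the 89 GATA3-positive cells and 32, 30 and 30 in the 471 negative cells. Spearman's correlation was highest for D4S234E (0.208), TMEM176B (0.198) and FAM167A (0.190). Beyond 1.5-fold lay 11.7% of genes upward and 14.4% downward, and 4.24% and 4.91% over all thinnings. GATA2 itself was at 0.89 (0.28 to 1.48) with GATA3, with 37.1 counts per 100 GATA3-positive cells and 19.96 per 100 negative cells. That value comes from 1 thinning, was -0.12 at 800 counts, and the pair at all counts held 1 in its interval. SRRM1 was at -0.85 at 800 counts.

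With HAND2 high log2 ratios were CHGA at 2.86, UBE2A at 1.91, SRRM1 at 1.70, SHB at 1.49 and SNAI1 at 1.41, and the lowest were FAM3A at -3.37, RPL34 at -2.90 and COG1 at -2.37. CHGA with HAND2 rests on few cells, since 25.4% of its counts lay in 1 cell, and averaged over all thinnings its log2 ratio was 0.62. In another thinning CHGA was at -0.28 and RPL34 at 0.24, and SNAI1 was at -0.050 at 800 counts. Beyond 1.5-fold lay 7.94% of genes upward and 10.3% downward, and 2.28% and 2.14% over all thinnings. Spearman's correlation was highest for UBE2A (0.195), TCEB1 (0.181) and CHGA (0.162).

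With TBX2 the highest were PPPDE1 at 1.77, POLR1C at 1.73, MIS18A at 1.59, CFLAR at 1.54, UFM1 at 1.49 and TXNL1 at 1.40, and the lowest were PPP2R5D at -2.44, RAB11B at -2.11 and LPIN2 at -2.07. Of these 9 genes 6 changed direction under another thinning or depth, so their ranking is not stable. PPPDE1 was at -0.085 in another thinning, POLR1C at -0.32 and UFM1 at -0.11 at 1500 counts, and CFLAR at -0.014, RAB11B at 0.11 and LPIN2 at 0.093 at 800 counts. Beyond 1.5-fold lay 6.96% of genes upward and 8.78% downward, and 1.24% and 1.7% over all thinnings. Spearman's correlation was highest for PPPDE1 (0.178), C6orf89 (0.141) and MIS18A (0.138).

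Genes chosen in 1 barcode set were read in the other, which the choice did not use. The 20 genes with the highest shared-cell ratio for GATA2 in set 1 gave 334 shared cells in set 2 against 304 (1.10), with 16 of 20 above 1, where 50.9% of all genes were. Chosen in set 2, they gave 334 in set 1 against 306 (1.09), with 14 of 20 above 1 (48.4% of all genes). The summed ratios were 1.04 in set 2 and 1.10 in set 1 for HAND2 (all genes 0.999 and 0.988). Above 1 for HAND2 lay 9 of 20 in set 2 (49.1% of all genes) and 16 of 20 in set 1 (43.8% of all genes). They were 1.01 in set 2 and 1.02 in set 1 for TBX2 (all genes 1.01 and 1.00), so its leading genes were near the background. They were 0.961 in set 2 and 1.06 in set 1 for GATA3 (all genes 0.932 and 0.990). For the rare factors they were 1.01 in set 2 and 0.874 in set 1 for PHOX2A (all genes 0.977 and 0.760), and 1.03 in set 2 and 1.03 in set 1 for TFAP2B (all genes 1.02 and 0.963). They were 1.08 in set 2 and 1.13 in set 1 for HAND1 (all genes 0.812 and 0.938), and 0.641 in set 2 and 0.866 in set 1 for ISL1 (all genes 0.680 and 0.900), where ISL1 lay below all genes both ways.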

How the data were processed

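The deposited table holds whole-number counts per gene and cell as the authors made them. The submitters' processing notes name Bowtie2 2.1.0 and the hg19 build. The counter, the annotation, the filter on cells and whether counts are molecules or reads were not stated by any source read for this work. The 8 factors and all gene lists were chosen with earlier results of these data known. A row without a gene name (2 counts) was left out.

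Levels are summed counts as CPM with exact Poisson intervals, and shares have exact Clopper-Pearson intervals, at 95%, for counting error only. Each cell was thinned to 1100 counts once (seed 1), leaving out 43 shallower cells (7.13%). Genes with at least 30 thinned counts in at least 20 cells were compared between factor-positive and factor-negative cells as log2 ratios with conditional binomial intervals. Named genes are every factor and, for each factor with at least 50 positive cells, the 6 highest and 3 lowest log2 ratios and the 3 highest Spearman correlations, with list members and genes chosen after their values were seen. Some of these genes are not reported here, and sums and counts over lists still hold them.

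Because 1 thinning proved unstable, measures added after seeing the data lead the text: the mean over all thinnings, and cells with both a factor and a gene at all counts. For the second, each gene's chance of a count in a cell is 1 minus the exponential of minus a rate times the cell's total, with the rate fitted to its number of positive cells, and ratios have exact Poisson intervals. With 1 sample no test was made. Alternatives were other depths (800 and 1500 counts), another thinning, each barcode set and left-out cells. Scripts were tested on simulated data and used Python 3.11.15, numpy 2.4.6, pandas 2.3.3 and scipy 1.17.1.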

Additional observations from a re-analysis of the deposited data

How the results depend on the processing

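Levels moved beyond their interval in few settings. TBX2 had 444 CPM in set 1, 369 CPM in set 2 and 374 CPM without its 10 richest cells (main 407). Without the 10 richest cells of each factor GATA2 had 179 CPM, GATA3 149, PHOX2A 15.2, ISL1 3.97 and HAND1 1.99 CPM, and ISL1 had 5.32 CPM in set 2. Leaving out the cells richest in a factor lowers its level by construction. Those 10 cells held 78.6% of the HAND1 counts, 62.5% of the ISL1 counts and 36.1% of the PHOX2A counts. Shares followed depth by construction. TBX2 was read in 22.4% of cells at 800 counts, 41.3% at 1500 counts, 53.1% at all counts and 8.75% with at least 2 counts asked for (main 31.1%). HAND2 was read in 20.1% of cells at 800 counts, 32.5% at 1500 counts, 44.3% at all counts and 3.39% with at least 2 counts asked for (main 26.3%). GATA2 was read in 14.1% of cells at 800 counts, 25.5% at 1500 counts, 32.7% at all counts and 3.21% with at least 2 counts asked for (main 18.2%). GATA3 was read in 12.6% of cells at 800 counts, 19.95% at 1500 counts, 28.4% at all counts and 3.93% with at least 2 counts asked for (main 15.9%). Observed over independent cells at 800 counts were 0.683 for TBX2 with GATA2 (main 1.01) and 0.840 for GATA2 with GATA3 (main 1.48), so the excess of GATA2 with GATA3 depends on the thinning.

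The noradrenergic and neuronal list, as a log2 ratio of summed counts, was -0.56 in another thinning and -0.47 at 800 counts with TBX2 (main -0.23). With HAND2 it was 0.37 in another thinning, 0.39 at 800, 0.35 at 1500, 0.33 in set 1, 0.86 in set 2 and 0.28 over all thinnings (main 0.60). With GATA2 it was 0.39 at 800, 0.85 in set 1 and 0.40 in set 2 (main 0.63), and with GATA3 -0.047 in another thinning and 0.19 at 800 (main 0.57). Without INS-IGF2 cells the ratio in cells with both GATA genes was 1.11 (main 1.28).

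Direction reversed for genes with few thinned counts, and the cause was not tested. With TBX2 PPPDE1 was -0.085 in another thinning and -0.0073 at 1500, POLR1C -0.32 and UFM1 -0.11 at 1500, and CFLAR -0.014, RAB11B 0.11 and LPIN2 0.093 at 800. With HAND2 CHGA was -0.28 and RPL34 0.24 in another thinning, RPL34 0.37 and SNAI1 -0.0033 at 1500, and SNAI1 -0.050 at 800. With GATA2 MTDH was 0.084 in another thinning and 0.030 at 1500, and PRPF4 -0.036 and GATA3 -0.20 at 800. With GATA3 SRRM1 was -0.85, GATA2 -0.12 and the protein partner list -0.62 at 800, and the chromaffin list -0.42 in another thinning.

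Genes beyond 1.5-fold upward numbered 241 in the main thinning, 43 over all thinnings and 2719 with no filter on low counts with TBX2, 275 in the main thinning, 79 over all thinnings and 2655 with no filter on low counts with HAND2, 326 in the main thinning, 103 over all thinnings and 2642 with no filter on low counts with GATA2 and 406 in the main thinning, 147 over all thinnings and 3005 with no filter on low counts with GATA3. Downward they numbered 304 in the main thinning, 59 over all thinnings and 3786 with no filter on low counts with TBX2, 357 in the main thinning, 74 over all thinnings and 3967 with no filter on low counts with HAND2, 457 in the main thinning, 174 over all thinnings and 4610 with no filter on low counts with GATA2 and 498 in the main thinning, 170 over all thinnings and 4772 with no filter on low counts with GATA3. No paired analysis was possible because the cell columns carry no replicate number and no result comes from a test. At a median of 2106 counts per cell, depth limits every statement on single cells.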
